A study of Mus musculus with 2 samples.

Results

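Malat1, Neat1 and Kcnq1ot1 are long RNAs that do not code for protein and stay in the nucleus, and here they were followed across the cell classes of a sort of mouse pancreas cells. They are 3 of the 14793 gene rows counted, and they were picked by name after their levels in these cells had been seen, so their levels are given as a description with no test. The cells came from the pancreas of adult Tff2CreERT2; R26-tdTomato mice after tamoxifen induction, in which tamoxifen lets a Cre recombinase made under Tff2 control turn on the red protein tdTomato from Rosa26. The sort took EpCAM+RFP+ cells without CD45 or TER119, DAPI served to leave out dead cells, and the libraries were of the 10x Genomics type, per the labels. The labels name 2 biological replicates of 1 group and no control group. They do not tie cells to replicates, so all 728 cells were treated as 1 pooled sample and no value has a replicate check. How long after tamoxifen the cells were taken is not stated in the labels.

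Malat1 is an abundant RNA of nuclear speckles, the bodies in which splicing factors collect. Neat1 has a short form and a long form that share their start, and the long form is the scaffold of paraspeckles, bodies that hold RNA-binding proteins such as Nono and Sfpq. Kcnq1ot1 is transcribed antisense to the potassium channel gene Kcnq1 from the paternal chromosome and is known for silencing genes around it in the embryo and placenta. The mature ends of Malat1 and of long Neat1 are known to be cut by RNase P and not made by polyadenylation.

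In the GRCm38 build with the GENCODE M21 annotation, Malat1 lies on the minus strand at chr19:5795690-5802672 and spans 6983 bases. Neat1 lies on the same strand at chr19:5824708-5845478, spans 20771 bases and is separated from Malat1 by 22035 bases. Kcnq1ot1 lies on the minus strand at chr7:143203458-143296549 and spans 93092 bases inside Kcnq1, which is on the plus strand. Both lincRNA genes and the antisense gene have a main transcript of 1 exon. Kcnq1 was the only gene with a row in the count table whose annotated span overlaps a member, and the labels do not state whether the counting used strand. The last 100 bases of 4 annotated transcripts are printed 5′ to 3′ because the ends differ in the polyadenylation signal that a poly(A)-tailed RNA carries, and each gene row sums all forms of its RNA. Capitals mark AATAAA, searched on the transcript's own strand.

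Malat1-201, chr19:5795690-5795789, minus strand: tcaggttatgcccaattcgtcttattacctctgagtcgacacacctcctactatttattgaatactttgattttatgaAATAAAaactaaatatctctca
Neat1-202 (short), chr19:5842307-5842406, minus strand: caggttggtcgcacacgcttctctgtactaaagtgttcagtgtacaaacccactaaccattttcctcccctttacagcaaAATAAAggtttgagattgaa
Neat1-201 (long), chr19:5824708-5824807, minus strand: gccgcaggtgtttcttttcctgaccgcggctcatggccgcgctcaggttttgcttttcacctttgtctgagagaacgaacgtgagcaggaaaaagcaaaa
Kcnq1ot1-201, chr7:143203458-143203557, minus strand: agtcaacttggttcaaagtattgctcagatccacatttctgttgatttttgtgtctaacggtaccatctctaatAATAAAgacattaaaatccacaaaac

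The signal began 22 bases before the annotated end of Malat1-201, 20 bases before that of Neat1-202 and 26 bases before that of Kcnq1ot1-201, and it was not found in the last 100 bases of Neat1-201. Of 139316 annotated transcripts, 28.9% hold AATAAA in their last 100 bases. Runs of 6 or more A occurred 131 times in Kcnq1ot1-201, 5 times in Malat1-201, 7 times in Neat1-201 and 0 times in Neat1-202. These transcripts differ in length, and per 1000 bases the values were 1.41, 0.72, 0.34 and 0 in the same order. The counts per gene do not show from which form or site a read came.

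Cells were placed in 5 classes by their own transcripts. Ductal cells had 2 or more UMIs (unique molecular identifiers, the counted molecules) of Krt19 and Epcam, endothelial cells 5 or more of Kdr, Cdh5, Pecam1 and Egfl7, B cells 2 or more of Cd79a, Cd79b and Ms4a1, and T cells 2 or more of Cd3e, Cd3d and Cd3g. Acinar cells had 10% or more of their UMIs from the digestive enzyme genes Ctrb1, Try4, Cela1 and Prss2. This gave 32 ductal, 159 endothelial, 101 B, 68 T and 262 acinar cells, while 10 cells met several rules and 96 met none. Of those 96 cells, 16 were globin-rich (20% or more of UMIs from 4 globin genes) and 80 stayed unclassified. The wider marker lists, which include the rule genes, were each highest in their own class, with the ductal list at 30586 CPM (a gene's or list's UMIs relative to all UMIs summed over the cells) in ductal cells, against 731 CPM in acinar cells. Endothelial, B and T cells were present although the sort selected for EpCAM and against CD45.

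The 728 cells held 2353008 UMIs, from 1004 to 53222 per cell. The median depth was 3295 UMIs in ductal, 1879 in endothelial, 1622 in B, 2415 in T and 2102 in acinar cells. Barcodes ended in 1 (667 cells) or 2 (61 cells), and acinar cells made up 45 of the 61. The same 7 barcodes occurred under both endings, 6 of them acinar under both, and these cells held 4 Malat1 UMIs of 10293 UMIs under ending 1 and 10 of 58127 under ending 2. Acinar enzyme transcripts, 30 measured markers, took 76.0% of the UMIs of acinar cells but 2.03% of those of the other 4 classes together. In the ratios of the 4 classes to acinar cells, a gene's share of all UMIs is therefore set beside its share of the UMIs without these enzymes. Shares of cells, spread among cells, background levels and profiles over classes keep the enzymes in the total. Splits by mitochondrial share, depth or barcode ending keep them too, unless stated.

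Malat1 was the most abundant of the members, with 34139 UMIs, and every ductal, endothelial, B and T cell had at least 1. Pooled, it made up 23675 CPM in ductal cells (95% interval 22830 to 24544), 36737 CPM in endothelial cells (36126 to 37357), 26163 CPM in B cells (25457 to 26883) and 18662 CPM in T cells (18035 to 19305), against 892 CPM in acinar cells (837 to 949). The intervals are exact Poisson intervals and cover counting error only. The order was endothelial, B, ductal, T and acinar. Neighbours in this order differed by 0.49 on the log2 scale between endothelial and B cells, by 0.14 (0.08 to 0.21) between B and ductal cells and by 0.34 between ductal and T cells, all beyond counting error but small beside the spread among cells.

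Single cells showed that spread. Malat1 per 10000 UMIs of a cell ran from 27.7 to 671 in ductal cells with a median of 206. In endothelial cells it ran from 35.5 to 1005 with a median of 353. In B cells it ran from 10.9 to 738 with a median of 285, and in T cells from 30.1 to 715 with a median of 178. The 4 classes overlapped over most of their range. Acinar cells ran from 0 to 1445 with a median of 2.36 and an upper quartile of 6.16, and 120 of the 262 had no Malat1 UMI.

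**Figure D1:**
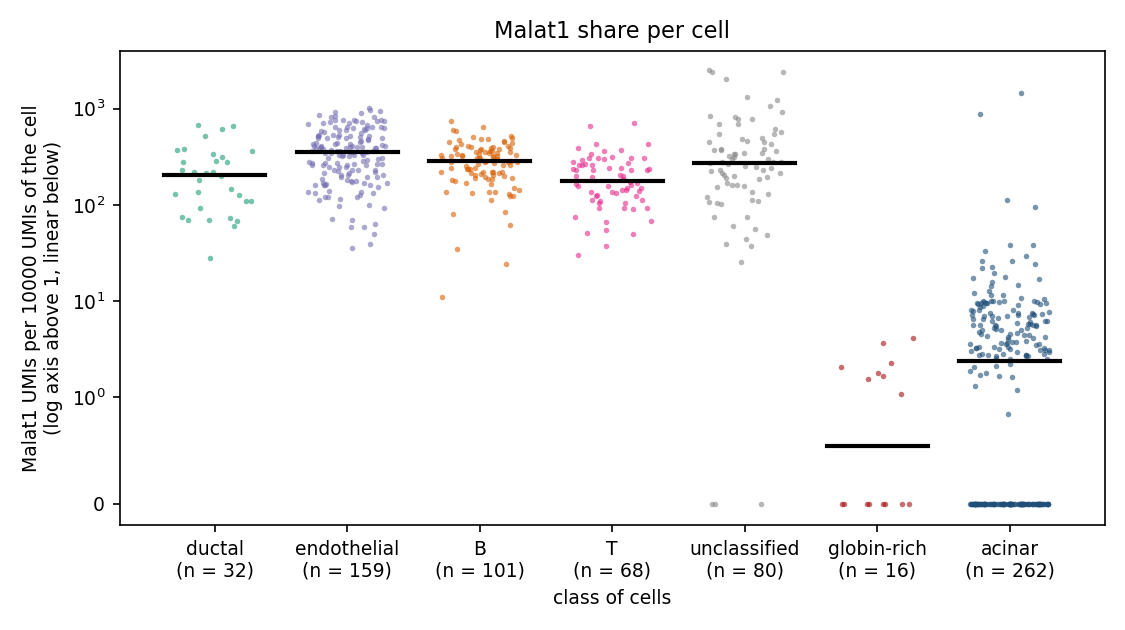
Malat1 UMIs per 10000 UMIs, 1 point per cell, by class (log axis above 1, linear below), with the class median as a bar. The medians of the ductal, endothelial, B, T and unclassified cells lie between 178 and 353, against 2.36 in acinar cells. The globin-rich column holds the 16 such cells that met no class rule, since 2 others met the endothelial rule.

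Among the acinar cells, 24 of 262 lay at or above the lowest B cell, 8 at or above the lowest ductal cell, 7 at or above the lowest T cell and 6 at or above the lowest endothelial cell. The acinar cells with a Malat1 UMI were mostly at 1 UMI (58 cells) or at 2 to 5 UMIs (69 cells), and 15 cells had more than 5. A pair of acinar cells stood apart, with 384 Malat1 UMIs of 2658 in the first and 121 of 1392 in the second. They held 51.3% of all acinar Malat1 UMIs, and the third-highest acinar share was 111 per 10000. Without them the acinar level was 436 CPM (398 to 477). Their enzyme shares were 41.0% and 39.7%, their mitochondrial shares 7.45% and 17.4%, and they carried 14 and 3 Neat1 UMIs. Neither had a UMI of the endothelial, B or T marker lists.

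Against acinar cells, pooled Malat1 was higher by 4.73 on the log2 scale in ductal, 5.36 in endothelial, 4.87 in B and 4.39 in T cells, and by 5.01 (4.92 to 5.11) in the 4 classes together, a 32.3-fold difference. Relative to UMIs without the acinar enzymes, the differences were 2.70, 3.34, 2.84 and 2.35 in ductal, endothelial, B and T cells and 2.98 (2.89 to 3.07), or 7.89-fold, in the 4 together. Leaving out the pair of Malat1-rich acinar cells gave 6.04 relative to all UMIs and 4.004 without the enzymes. The size of the difference therefore depends on 2 cells, and its direction does not.

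These ratios are read against those of all genes. Relative to all UMIs, 85.4% of the 2967 genes with 50 or more UMIs over both sets were at least 2-fold higher in the 4 classes than in acinar cells, as Malat1 was. The median gene was higher by 2.71 on the log2 scale, and by 0.68 without the enzymes, where 41.8% of genes were at least 2-fold higher. Malat1 ranked 451 of 2967 from the highest ratio. Its rank was 63 of 958 in ductal cells, where 72.1% of genes were at least 2-fold higher, and 327 of 1846 in endothelial cells, where 80.3% were. It was 95 of 969 in B cells, where 60.6% were, and 94 of 932 in T cells, where 60% were. Without the enzymes the ranks are the same, and the shares of genes at least 2-fold higher were 25.2% in ductal, 43.9% in endothelial, 24% in B and 23.3% in T cells.

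**Figure D2:**
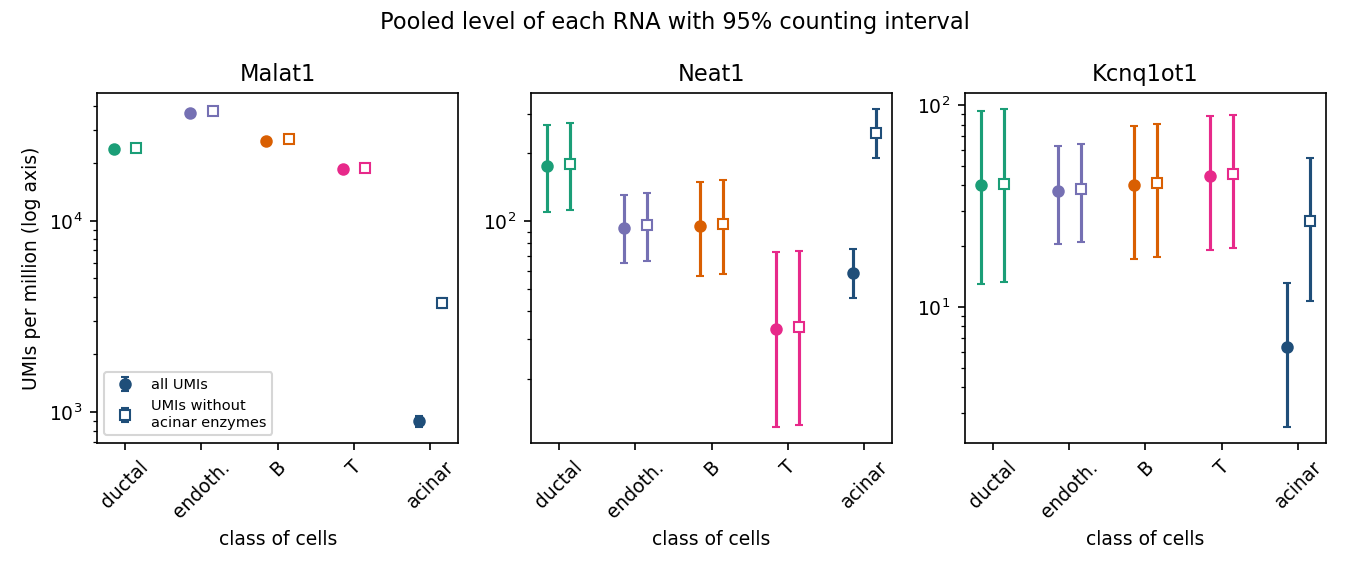
Pooled level of each RNA in CPM (log axis, own range in each panel) for 5 cell classes, relative to all UMIs (filled) and to UMIs without the acinar enzymes (open), with exact 95% counting intervals. Malat1 is lowest in acinar cells on both totals. Neat1 in acinar cells stands at 58.9 on the first total and at 246 on the second, above the other classes. On the second total ductal cells are at 179, and the interval of their log2 ratio to acinar cells includes 0.

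Neat1, the paraspeckle scaffold, had 210 UMIs in all, and its order across classes differed from that of Malat1. Ductal cells had 22 UMIs in 15 of 32 cells, or 176 CPM (110 to 266). Endothelial cells had 35 UMIs in 29 of 159 cells, or 93.5 CPM (65.2 to 130). B cells had 19 UMIs in 16 of 101 cells, or 95.3 CPM (57.4 to 149). T cells had 6 UMIs in 4 of 68 cells, or 33.4 CPM (12.3 to 72.7), so relative to all UMIs Neat1 was lowest in T cells and highest in ductal cells. Acinar cells had 65 UMIs in 42 of 262 cells, or 58.9 CPM (45.5 to 75.1), and 48 UMIs or 43.7 CPM without the pair of Malat1-rich cells.

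Neighbours in the order of Neat1 were mostly not separated by counting error. The ratio of ductal to B cells was 0.88 on the log2 scale (-0.07 to 1.85), that of B to endothelial cells 0.04 (-0.86 to 0.87), that of endothelial to acinar cells 0.68 (0.03 to 1.28) and that of acinar to T cells 0.71 (-0.38 to 2.32). With every cell thinned to 1000 UMIs, the share of cells with a Neat1 UMI was 16.6% in ductal, 8.85% in endothelial, 10.6% in B and 3.88% in T cells, against 6.78% in acinar cells. The unthinned shares were 46.9%, 18.2%, 15.8% and 5.88% in the same 4 classes, against 16.03% in acinar cells.

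The direction of the Neat1 difference from acinar cells turned with the total. Relative to all UMIs, Neat1 in the 4 classes was higher by 0.66 on the log2 scale (0.18 to 1.16) than in acinar cells, under the 2-fold mark that 85.4% of genes passed and at rank 2623 of 2967. Relative to UMIs without the enzymes it was at 95.3 CPM of such UMIs in the 4 classes, against 246 CPM in acinar cells, a log2 ratio of -1.37 (-1.85 to -0.88). In that comparison 14.9% of genes were at least 2-fold lower in the 4 classes. By class, the ratios without the enzymes were -0.43 (-1.22 to 0.26) in ductal, -1.35 in endothelial, -1.31 in B and -2.75 in T cells. Of these, only the ductal interval included 0. The shares of all genes at least 2-fold lower without the enzymes were 28.5% in ductal, 20.2% in endothelial, 39.9% in B and 40.9% in T cells. Without the pair of Malat1-rich acinar cells the ratio for the 4 classes was 1.09 relative to all UMIs and -0.95 (-1.47 to -0.40) without the enzymes. With pair and enzymes left out, the ratio was -0.01 (-0.83 to 0.72) in ductal cells. The intervals stayed below 0 in endothelial, B and T cells.

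A ratio of the members within the same cells does not depend on either total. For every 1000 Malat1 UMIs there were 7.43 Neat1 UMIs in ductal, 2.55 in endothelial, 3.64 in B and 1.79 in T cells, against 66.1 (50.6 to 85.0) in acinar cells. The 4 classes together had 3.24 (2.58 to 4.03). Without the pair of Malat1-rich cells the acinar value was 100.2 (72.9 to 135), so acinar Neat1 was higher relative to Malat1 with and without them. The unclassified cells had 7.76 (5.90 to 10.0). In the 16 globin-rich cells that met no class rule there were 0 Neat1 and 9 Malat1 UMIs, with an interval of 0 to 507. That interval includes the acinar values, and the part of background in them was not tested.

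Kcnq1ot1, the antisense RNA of the Kcnq1 domain, had 60 UMIs in all and never more than 4 in a cell. It was at 40.0 CPM in ductal (5 UMIs), 37.4 CPM in endothelial (14 UMIs), 40.1 CPM in B (8 UMIs) and 44.6 CPM in T cells (8 UMIs), against 6.34 CPM (2.55 to 13.1; 7 UMIs in 7 cells) in acinar cells. The first 4 classes lay within counting error of each other, with neighbouring log2 ratios of 0.15 or less in size between T, B and ductal cells and of 0.18 (-1.73 to 1.65) between ductal and endothelial cells. Against acinar cells the 4 together, at 39.9 CPM, were higher by 2.57 on the log2 scale (1.46 to 4.07). Without the enzymes the ratio was 0.54 (-0.57 to 2.03), an interval that includes 0. With 42 UMIs over both sets Kcnq1ot1 did not reach the minimum of 50 UMIs at which genes were ranked, so it has no place among the 2967.

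Globin-rich cells served as a rough measure of background, since most mature red cells lack a nucleus. The 16 that met no class rule had 9 Malat1 UMIs in 8 cells, a level of 109 CPM (49.6 to 206). At 1000 UMIs per cell, 11.1% of these 16 had a Malat1 UMI, and 30.2% of acinar cells did, while at least 99.6% did in each of the other 4 classes. The unthinned shares were 50% at a median depth of 5372 UMIs in the globin-rich cells and 54.2% at 2102 UMIs in acinar cells. Neat1 and Kcnq1ot1 had 0 UMIs in these 16 cells, which allows a level of up to 36.2 CPM and a share of up to 18.8% of cells. The end of the exact interval is 44.5 CPM. Kcnq1ot1 in acinar cells and Neat1 in T cells (33.4 CPM) lie under both values, and Kcnq1ot1 in the other 4 classes (37.4 to 44.6 CPM) lies close to them. Neat1 in acinar cells lies above both at 58.9 CPM, and at 43.7 CPM (32.2 to 57.9) between them without the pair of Malat1-rich cells. Levels under or near these limits could not be separated from background at this depth. Enzyme transcripts made up 0.97% of the UMIs of these 16 cells and 2.03% in the 4 classes, so background may differ between kinds of cells. A level above the limits is therefore not shown to be above the background of its own class.

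Malat1 varied among cells of a class by more than counting gives. Its dispersion, the variance over that expected if every cell had the same share, was 49.99 in ductal, 34.2 in endothelial, 16.2 in B and 20.7 in T cells. In acinar cells it was 283, and 4.45 without the pair of Malat1-rich cells. The coefficient of variation beyond counting error was 0.69 in ductal, 0.63 in endothelial, 0.58 in B and 0.59 in T cells, against 3.75 in acinar cells and 0.98 in acinar cells without that pair. With an equal share in every acinar cell, 44.8 cells would have been without a Malat1 UMI, or 93.2 with the pair left out, against the 120 observed. For Neat1 the dispersion was 1.07 in ductal, 1.52 in endothelial, 1.39 in B, 3.32 in T and 6.27 in acinar cells, and 1.58 in acinar cells without the pair.

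Cells just inside and just outside the class rules are given once as a description. Among cells of no other class, 5 had from 5 to 10% of UMIs from the 4 acinar rule genes. Their median was 323 Malat1 UMIs per 10000, in a range from 0 to 1319. Those with enzyme shares of 65.9% and 49.7% had 0 Malat1 UMIs, and the rest had mitochondrial shares of 24.0%, 26.4% and 29.7%. The 5 cells with 10 to 15% had a median of 9.31, in a range from 0 to 94.4. Above that the medians were 7.38 at 15 to 20% (7 cells), 3.35 at 20 to 30% (93 cells) and 0 above 30% (157 cells). For ductal cells the median was 92.0 in the 5 cells just inside the rule and 279 in the 5 cells just outside. For T cells it was 238 in the 8 cells just inside and 433 in the 3 just outside.

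**Figure D3:**
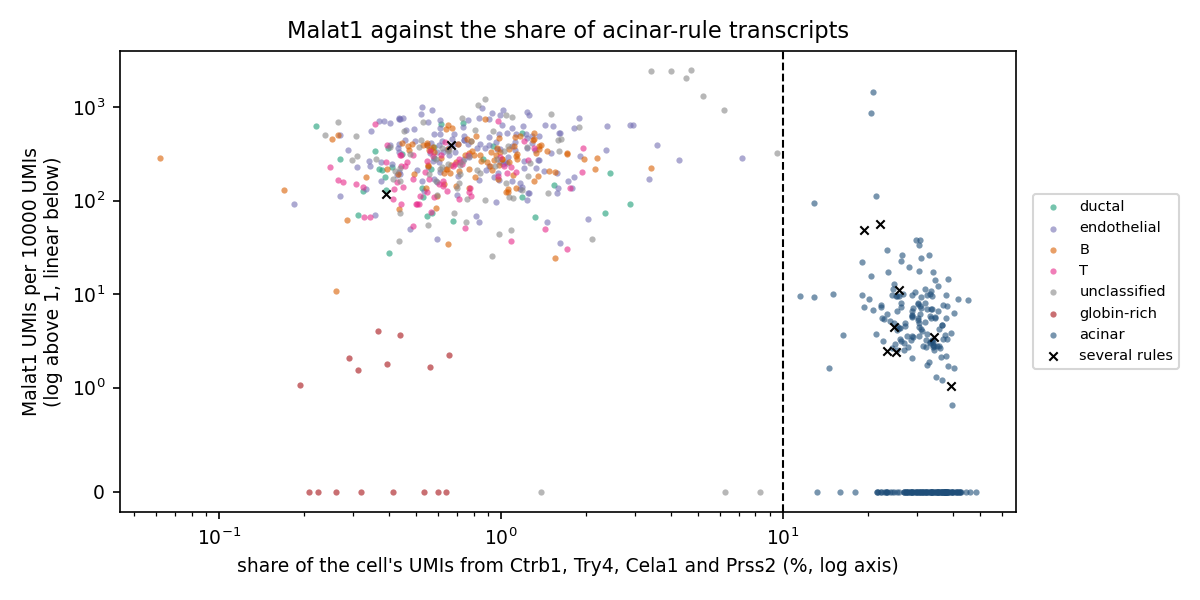
Malat1 UMIs per 10000 UMIs against the share of the cell's UMIs from the 4 acinar rule genes (both log axes, Malat1 linear below 1), 1 point per cell, with the 10% rule dashed. Most cells left of the line lie above 10 and most cells right of it lie below 40, and a few unclassified cells at shares of 3 to 6% reach 2503.

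Some unclassified cells had more Malat1 than any cell of the 4 classes. The 80 unclassified cells had 36569 CPM of Malat1, 284 CPM of Neat1 (59 UMIs in 26 cells) and 86.6 CPM of Kcnq1ot1 (18 UMIs). Of them, 7 lay above the highest endothelial cell, and their Malat1 reached 25.03% of the UMIs of a cell. These 7 cells were chosen by their Malat1, so what follows is a description. They held 23 Neat1 UMIs in 13549 UMIs, or 1698 CPM (1076 to 2547), against 185 CPM (130 to 256) in the remaining 73, and 8 Kcnq1ot1 UMIs, or 590 CPM (255 to 1163), against 51.5 CPM (24.7 to 94.6). In 5 of the 7, enzyme transcripts made up from 10.6% to 14.5% of UMIs and acinar markers were the only marker list above 3 UMIs. In these 5, mitochondrial transcripts made up from 1.92% to 26.4% of UMIs. Another of the 7 held 105 UMIs of mesenchymal markers.

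Mitochondrial share, a common measure of cell damage, was examined within each class, with the members taken relative to UMIs of other than mitochondrial genes. The median mitochondrial share was 6.15% in ductal, 3.32% in endothelial, 4.06% in B and 3.15% in T cells, against 1.07% in acinar cells. These shares are of all UMIs, of which enzymes took 76.0% in acinar cells and 2.03% in the other 4 classes. The acinar share is lowered by that and does not show a lower mitochondrial content. Spearman's rho between the mitochondrial share and Malat1 across cells was -0.17 in 32 ductal, -0.05 in 159 endothelial, 0.10 in 101 B, 0.20 in 68 T and 0.24 in 262 acinar cells, all weak, and the depth of a cell enters both measures. In pooled UMIs, cells above the class median differed from those at or below it by -0.19 on the log2 scale in ductal, -0.06 in endothelial, 0.32 in B and 0.16 in T cells.

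Acinar cells with a mitochondrial share above the median had 2214 CPM of Malat1, against 371 CPM in those at or below it, a log2 ratio of 2.58 (2.38 to 2.78). Without the pair of Malat1-rich cells, both of which lay above the median, the values were 611 CPM above and 371 CPM at or below it, and the ratio was 0.72 (0.45 to 0.99). Neat1 was at 134 CPM in acinar cells above the median and at 29.6 CPM in those at or below it, a ratio of 2.16 (1.41 to 2.97), and of 1.42 (0.54 to 2.30) without the pair. The direction was the same for both RNAs with and without the pair. Both measures keep the enzymes in their totals, so a high enzyme share of a cell lowers both. Relative to UMIs without the enzymes, Malat1 had rho 0.18 with the mitochondrial share, against 0.24 relative to all UMIs. Without the pair these were 0.16 and 0.22. Across acinar cells the mitochondrial share itself had rho -0.34 with depth, so the split by mitochondrial share is partly a split by depth. The parts of cell damage, of depth and of the enzyme share in these values were not tested.

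**Figure D4:**
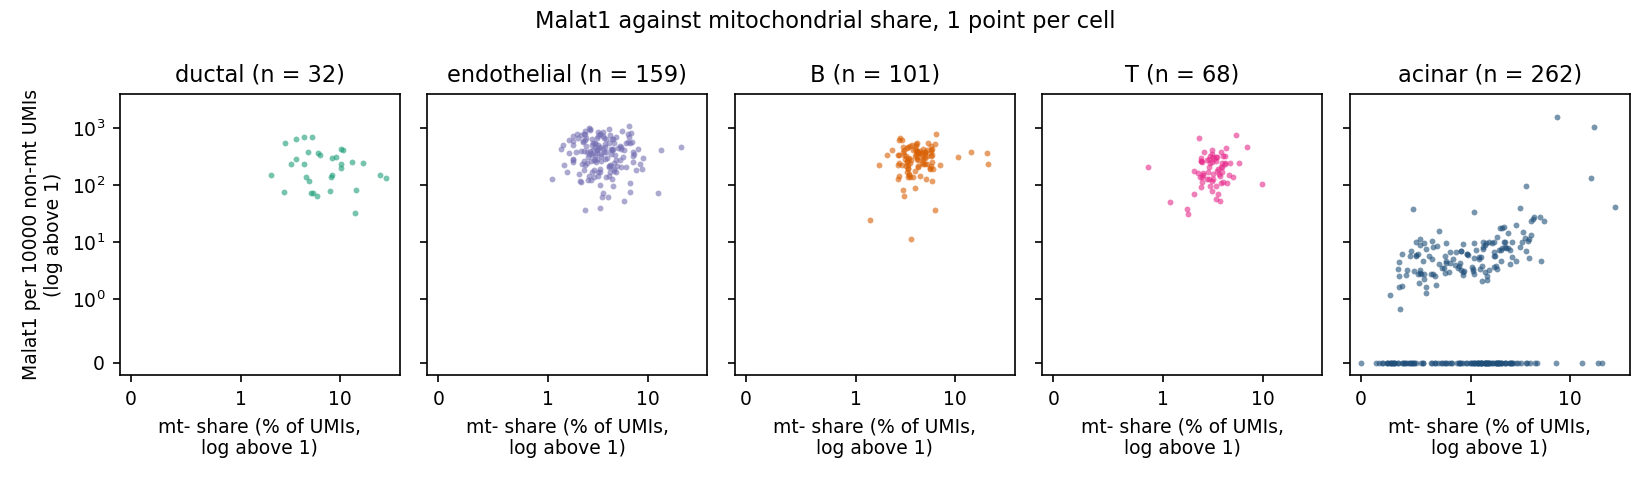
Malat1 UMIs per 10000 UMIs of other than mitochondrial genes against the mitochondrial share of the cell (both axes log above 1, linear below), 1 panel per class, 1 point per cell. The pair of acinar cells with the most Malat1 has mitochondrial shares of 7.45% and 17.4%, and the other classes show no steep relation, with rho between -0.17 and 0.20.

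Depth went with Malat1 in some classes. Spearman's rho between UMIs per cell and Malat1 per 10000 was 0.07 in ductal, -0.13 in endothelial, -0.27 in B, -0.44 in T and 0.13 in acinar cells. T cells deeper than the class median had 15281 CPM, against 24937 CPM in the shallower ones, a log2 ratio of -0.71 (-0.81 to -0.61). The ratios were 0.17 in ductal, -0.22 in endothelial and -0.40 in B cells. In acinar cells the pooled ratio was -0.61, and -0.56 without the pair, while the median cell had 2.97 Malat1 UMIs per 10000 among the deeper cells and 0 among the shallower ones. The acinar order by depth therefore depended on whether UMIs were pooled or cells were counted. In a shallower acinar cell 1 UMI already gives more than 2.97 per 10000, so a median there cannot match that value. The per-cell values, the rho of 0.13 included, are thus limited by detection at low depth. Across acinar cells, Malat1 as a share of UMIs without the enzymes had rho -0.28 with the enzyme share of the cell, 0.28 with the number of genes seen and -0.00196 with the share of Tff2, the gene that drives the Cre.

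Under the second barcode ending, levels of Malat1 were lower in each class. Acinar cells had 171 CPM (21 UMIs, 14 of 45 cells with one) under ending 2, against 982 CPM under ending 1. Ductal cells had 19183 CPM (3 cells) and 24082 CPM (29 cells) under endings 2 and 1, B cells 5453 CPM (2 cells) and 27224 CPM (99 cells), and T cells 7293 CPM (5 cells) and 19461 CPM (63 cells). The lone endothelial cell under ending 2 had 3553 CPM, against 36913 CPM in the 158 under ending 1. Neat1 and Kcnq1ot1 had 0 UMIs in all cells of the 5 classes under ending 2. No label says what the endings stand for.

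Other long RNAs ranged from lower to higher in the 4 classes. Of a list of 43, 18 were measured and 8 had 50 or more UMIs in the 4 classes and acinar cells together. Relative to all UMIs, 3 of the 8 were at least 2-fold higher in the 4 classes, beside 85.4% of all genes, 1 was at least 2-fold lower, beside 4.52%, and the median log2 ratio was 0.44, beside 2.71 for all genes. Without the enzymes 1 was higher and 5 were lower, beside 41.8% and 14.9% of all genes, with a median of -1.59 beside 0.68 for all genes. The 5 lower were Snhg9, Gm42418 (-2.67), Snhg18 (-1.83), Gm26917 (-1.73) and AY036118 (-1.46). The median describes these 8 rows and not long RNAs as a kind. Xist, which coats the inactive X chromosome, was the one higher on both totals, at 3.27 and, without the enzymes, 1.24. It had 1040 UMIs in the 4 classes and 135 in acinar cells, or 90 in acinar cells without the pair of Malat1-rich cells. Snhg9, a host transcript of a small nucleolar RNA, was lower on both, at -1.18 (-1.68 to -0.71) and, without the enzymes, -3.21, with 50 UMIs in the 4 classes and 143 in acinar cells.

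The proteins of the bodies that Malat1 and Neat1 belong to were counted as messenger RNAs. Of 19 nuclear speckle genes, 18 passed 50 UMIs, and all 18 were at least 2-fold higher in the 4 classes relative to all UMIs, near the 85.4% of all genes, with a median of 3.38 beside 2.71. Without the enzymes 12 of the 18 were higher and 0 lower, beside 41.8% and 14.9% of all genes, with a median of 1.34 beside 0.68. Srsf3, a splicing factor, was at 4.38 and 2.35 relative to all UMIs and to UMIs without the enzymes. Son, a core protein of speckles, was at 3.70 and 1.67 on these totals, and Srrm2, another, at 2.71 and 0.68. Of 21 paraspeckle genes, 16 passed, and all 16 were at least 2-fold higher relative to all UMIs, again near the 85.4% of all genes, with a median of 3.14 beside 2.71. Without the enzymes 10 of the 16 were higher and 0 lower, beside the same 41.8% and 14.9%, with a median of 1.11 beside 0.68. Nono was at 3.06 and 1.02, and Sfpq at 2.69 and 0.66. Neat1 itself, at 0.66 and -1.37, lay below all 16, of which the lowest was Tardbp at 1.503 and -0.53.

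**Figure D5:**
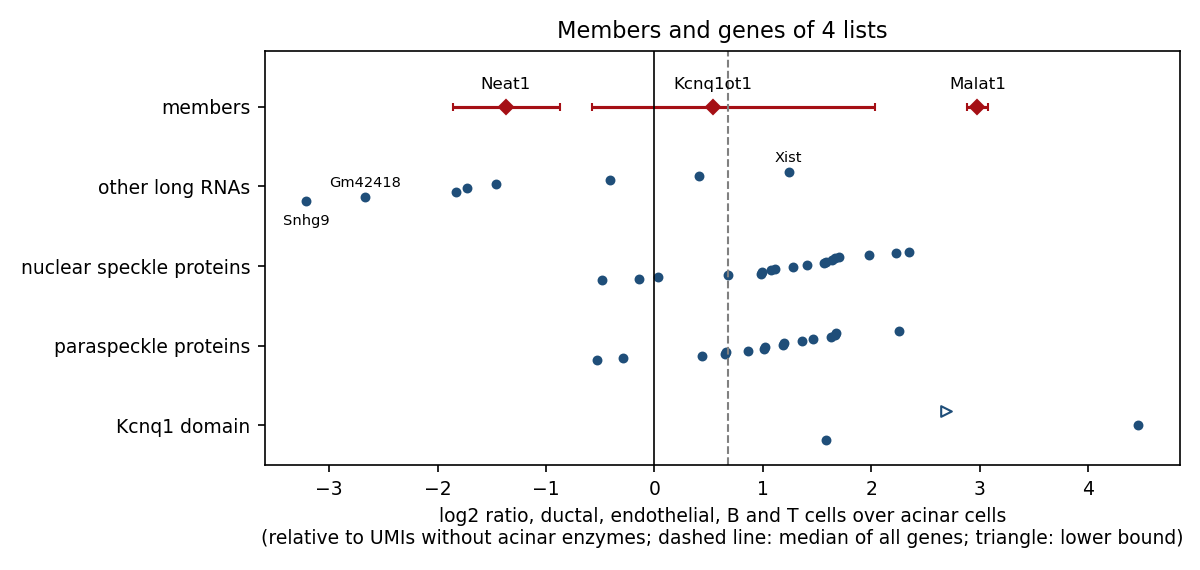
Log2 ratio of the ductal, endothelial, B and T cells together over acinar cells, relative to UMIs without the acinar enzymes, for the members (diamonds with 95% counting intervals) and for genes of 4 lists with 50 or more UMIs (points). The dashed line is the median of all genes, 0.68, and the open triangle is a lower bound for Tspan32, which had 0 UMIs in acinar cells. Malat1 lies at 2.98 and Neat1 at -1.37.

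Of 14 genes in and around the Kcnq1 domain, 12 were measured and 3 passed 50 UMIs. Cd81, a membrane tetraspanin, was higher in the 4 classes by 6.50 and by 4.46 without the enzymes. Nap1l4, a histone chaperone, was higher by 3.61 and 1.58 on the same totals. Among all genes the median was 2.71 and 0.68 on these totals, and 85.4% and 41.8% were at least 2-fold higher. Tspan32, a tetraspanin of blood cells, had 63 UMIs in B and T cells and 0 in acinar cells, which makes it at least 26.4-fold higher relative to all UMIs, with 3 counts over the acinar cells as the floor. Kcnq1 itself had 32 UMIs in the 4 classes and 15 in acinar cells, below the minimum, with log2 ratios of 1.40 (0.50 to 2.41) and -0.63 (-1.54 to 0.38). Reads of Kcnq1 and Kcnq1ot1 over their shared span cannot be told apart if strand was not used in counting.

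The genes most like each member were found from their levels over the 5 classes, as the distance between log2 profiles centred on their mean. Among 1429 genes with 100 or more UMIs, Malat1 was nearest to Hmgb1 (distance 0.43), a chromatin protein, followed by Nfkbia (0.51), Fubp1 (0.56), Akap13 (0.58) and Cd47 (0.60). Hmgb1 was at 744 CPM in ductal, 960 in endothelial, 597 in B and 546 in T cells, against 29.0 in acinar cells. Neat1 was nearest to Canx (0.61), a chaperone of the endoplasmic reticulum, Gabarap (0.66), Mydgf (0.68), Atp6v0b (0.73) and Rnh1 (0.80). Canx was at 264 CPM in ductal and 33.4 CPM in T cells, and at 54.4 CPM in acinar cells. Kcnq1ot1, on 42 UMIs, was nearest to 2700060E02Rik (0.16), Mrps16, Btg2, Ran and Hnrnpl. Each profile has 5 points. Across cells within a class, the highest mean of Spearman's rho over the 5 classes was a weak 0.18 for Malat1 (with Xist), 0.20 for Neat1 (with Fos) and 0.16 for Kcnq1ot1 (with Jun), among 502 or fewer genes seen in 10% or more of the cells of every class. The mean hides differences between classes: for Xist and Malat1 rho was 0.46 in 32 ductal and 0.35 in 262 acinar cells, but 0.000364 in endothelial, 0.16 in B and -0.09 in T cells.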

How the data were processed

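The deposited table holds UMI counts, whole numbers for each gene row in each cell. The submitters' processing notes name Cell Ranger and mm10, without versions or roles, and no source used here states the cell filter. The 3 members, the class rules and the gene lists were chosen with earlier results of these data known, and classes rebuilt from transcripts may differ from the study's. Symbols on 2 rows were summed. No doublet caller was run, and the 10 cells meeting several rules were put in no class. UMIs were summed per class, and log2 ratios had 0.5 counts added to each sum. Exact 95% intervals were used (Poisson for levels, binomial for ratios and shares). A value of 0 was limited by 3 counts. Genes with 50 or more UMIs over both sets were called at 2-fold. Cells were thinned to 1000 UMIs for shares of cells with a UMI, and 0 cells were shallower. Since cells cannot be assigned to replicates, no test was run and no p-value is given. The ratio and interval code was tested on simulated data. The 5 genes most like each member were named by distance and by mean within-class rho, and list genes with 50 or more UMIs were counted, with a few named. The pair of Malat1-rich acinar cells and the 7 unclassified cells were picked after seeing the data. Python 3.11.15, numpy 2.4.6, pandas 2.3.3 and scipy 1.17.1 were used.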

Additional observations from a re-analysis of the deposited data

How the results depend on the processing

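Ratios below are log2, the ductal, endothelial, B and T cells together over acinar cells. Malat1 (5.01) stayed higher in all 15 alternatives, between 2.97 and 6.12. It was 2.98 without the enzymes and 2.97 without enzymes and mitochondrial transcripts, 4.90 with cells of several rules in each class, 4.91 under ending 1 and 5.86 under ending 2. It was 6.12 in cells with at most 5% mitochondrial UMIs, 3.84 in cells under 3000 UMIs, 4.52 as the mean of the cells' own shares and 4.88 as the mean of the 4 class levels. Without the pair of Malat1-rich acinar cells, an alternative chosen after seeing the data, it was 6.04, and 4.004 without the enzymes as well.

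Neat1 (0.66) changed direction in 4 of 13 alternatives. It was -1.37 without the enzymes and also without enzymes and mitochondrial transcripts, and -0.95 without the pair and the enzymes. In cells under 3000 UMIs it was -0.20 (-0.80 to 0.44), an interval that includes 0. As the mean of the cells' own shares it was 0.17. Without the pair alone it was 1.09, past the 2-fold mark. Kcnq1ot1 (2.57) had a positive ratio in all 13, but at 0.54 without the enzymes, 0.54 without enzymes and mitochondrial transcripts and 0.73 without the pair and the enzymes the intervals included 0. Ending 2 gave no value for either, with 0 UMIs in both sets. The alternatives are not independent of the pair of Malat1-rich acinar cells. The limit of 5% mitochondrial UMIs leaves out both cells, with acinar Malat1 at 452 UMIs, against 984 in the main setting. The limit of 3000 UMIs keeps both, and they hold 505 of the 653 acinar Malat1 UMIs in that setting. The cause of the shifts was not tested further, apart from the smaller total that leaving out the enzymes gives.

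For cells above against cells at or below the median mitochondrial share, Malat1 in acinar cells (2.58) was 2.85 under ending 1 and 0.72 without the pair, and in B cells (0.32) it was 0.20 under ending 1. In T cells (0.16) it was 0.07 (-0.03 to 0.17) under ending 1, an interval that includes 0. Genes at least 2-fold higher numbered 2534 of 2967 (85.4%), and 5386 of 6258 (86.1%) with a minimum of 20 UMIs. They numbered 11770 of 14075 (83.6%) with no minimum beyond 1 UMI, and 1241 of 2967 (41.8%) without the enzymes. Genes at least 2-fold lower numbered 134 (4.52%), and 209 (3.34%), 753 (5.35%) and 443 (14.9%) under the same settings. In all, 38 alternative values stayed within the counting interval of the main value, including 1.09 for Neat1 and 0.07 for T cells.

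No paired analysis was possible because cells cannot be assigned to the replicates, and for the same reason leaving out a replicate was not run. Intervals cover counting error only, not the spread between mice. Neat1 and Kcnq1ot1 rest on 147 and 42 UMIs in the 5 classes, so most differences among the first 4 classes were not detectable at this depth.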
